A study of Mus musculus with 14 samples.

Results

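The RNAs made from the mouse mitochondrial genome were followed through 14 testis libraries. All genes whose GENCODE M21 symbol starts with mt- were taken, which gave 37 of the 102531 features in the tables: 13 mRNAs, 2 rRNAs and 22 tRNAs. The animals were 4 Adad2 mutants (Adad2M/M, MUT) and 3 wild types (Adad2+/+, WT), C57BL/6 males at 21 days post partum. ADAD2 is a double-stranded RNA binding protein of male germ cells. Every animal, controls included, was heterozygous for Rpl22-HA and for Stra8-iCre, the RiboTag system, in which Cre turns on an HA-tagged large-subunit protein in differentiating germ cells. Each animal gave 2 libraries: RNA pulled down with anti-HA antibody (IP) and total RNA of the lysate before pull-down (Input). The mutants were animals 12, 69, 93 and 94, and the wild types were animals 17, 121 and 140.

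The mitochondrial genome is a small circle inside the organelle. Its long transcripts are cut into mRNAs for core subunits of the respiratory chain, the rRNAs of the mitochondrial ribosome and the tRNAs that read them. These mRNAs are translated inside the organelle by ribosomes with their own proteins, nearly all of them encoded in the nucleus. RPL22 belongs to the cytosolic ribosome, so ribosomes inside mitochondria carry no tag. The mitochondrial mRNAs therefore address a question about the pull-down itself, namely how far RNA without a tagged ribosome is reduced in IP.

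Libraries held between 22987974 and 30871330 estimated counts. Spike-ins took 0.599% to 0.764% of Input counts and 1.72% to 3.15% of IP counts. Mutant IP libraries had 12744 to 15024 gene symbols above 0, against 19655 to 21880 in wild-type IP. In Input, mutants 12, 69 and 93 also had fewer, at 16024, 15438 and 21334, against 25319 to 27791 in wild-type Input. Mutant 94, at 27002, lay inside the wild-type Input range. Adad2 itself, read from all its transcripts, had 6.33 to 11.3 CPM (counts scaled to the size of the library) in mutant IP against 99.2 to 109 CPM in wild-type IP, with no overlap. The cell type markers moved with the fraction. Summed markers of early meiotic germ cells were higher in IP, at 4652 to 5046 CPM in mutant IP against 2515 to 3193 CPM in mutant Input, and at 4823 to 5379 CPM in wild-type IP against 3166 to 3188 CPM in wild-type Input. Summed markers of round spermatids, also germ cells, were lower in IP, at 120.5 to 199 CPM in mutant IP against 323 to 414 CPM in mutant Input, and at 255 to 303 CPM in wild-type IP against 651 to 799 CPM in wild-type Input. The 20 Sertoli cell markers summed to 362 to 493 CPM in mutant IP against 1313 to 1961 CPM in mutant Input, and to 417 to 544 CPM in wild-type IP against 1183 to 1312 CPM in wild-type Input. The 12 Leydig cell markers summed to 22.4 to 68.1 CPM in mutant IP against 392 to 699 CPM in mutant Input, and to 41.6 to 91.6 CPM in wild-type IP against 342 to 436 CPM in wild-type Input. Of 12 markers each, 3 Leydig, 6 macrophage and 5 vessel and blood markers were at 0 in all mutant IP libraries.

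All 37 genes lie on chromosome M of GRCm38, 9 of them on the minus strand, and each has 1 transcript in the tables. The 22 tRNA genes were listed at 0 counts in all 14 libraries. They are 59 to 75 bases long, shorter than the trimmed reads, and RSEM gave each of them an effective length of 0, so these zeros say nothing of tRNA levels. The shortest and the longest are printed to show their length, which is below that of a trimmed read: mt-Ts2 (chrM:11613-11671, plus strand), a serine tRNA, and mt-Tl1 (chrM:2676-2750, plus strand), a leucine tRNA.
mt-Ts2: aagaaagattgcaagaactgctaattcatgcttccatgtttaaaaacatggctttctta
mt-Tl1: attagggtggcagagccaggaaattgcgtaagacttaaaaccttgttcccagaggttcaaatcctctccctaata
The other 15 members had counts in at least 1 library, and 9 of these had expected counts above 0 in all 14. Among the 9, mt-Co3 had as few as 0.13 expected counts.

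Some of the 15 share sequence with each other. The end of mt-Atp8 overlaps the start of mt-Atp6 by 43 bases, and mt-Nd4l overlaps mt-Nd4 by 7 bases. Both pairs are read in different frames of 1 mRNA, so their separate values rest on how RSEM divided common fragments. The shared stretches are printed with the first codon of the downstream gene in capitals, for mt-Atp6 at chrM:7927-7969 and mt-Nd4 at chrM:10167-10173, both on the plus strand.
mt-Atp6: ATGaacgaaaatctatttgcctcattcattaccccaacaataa
mt-Nd4: ATGctaa
The mt-Nd5 and mt-Nd6 genes overlap by 14 bases on opposite strands. The libraries were stranded but the strand setting of the counting was not given in the sources used here, so reads of mt-Nd6 and of the transcript opposite it cannot be told apart with certainty.

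A larger part of the sequence is shared with the nucleus. On chromosome 1 of GRCm38, between 24611535 and 24616197 on the minus strand, the annotation holds 7 pseudogenes in a row, each a copy of a mitochondrial gene. These are Gm29216 (copy of mt-Co1), Gm28661 (mt-Co2), Gm10925 (mt-Atp6), Gm28437 (mt-Co3), Gm28438 (mt-Nd3), Gm10222 (mt-Nd4l) and Gm28439 (mt-Nd4). For 5 of the 7 the whole pseudogene was identical to part of its mitochondrial gene. Gm28437 matched mt-Co3 over all 783 of its bases, Gm28661 matched mt-Co2 over 681, Gm10925 matched mt-Atp6 over 678, Gm10222 matched mt-Nd4l over 294 and Gm28439 matched mt-Nd4 over 876. The ends of the first 3 pairs are printed because they are the whole difference between gene and copy, with the bases past the end of the copy in capitals (mt-Co3, chrM:9363-9390; Gm28437, chr1:24613189-24613215; mt-Co2, chrM:7667-7696; Gm28661, chr1:24614885-24614911; mt-Atp6, chrM:8578-8607; Gm10925, chr1:24613974-24614000).
mt-Co3: tacgtctccatttattgatgaggatctT
Gm28437: tacgtctccatttattgatgaggatct
mt-Co2: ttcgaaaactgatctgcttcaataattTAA
Gm28661: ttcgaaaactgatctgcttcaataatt
mt-Atp6: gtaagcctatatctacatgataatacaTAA
Gm10925: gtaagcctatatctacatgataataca
The other two copies differ from their genes near the first base of the copy. Gm28438 has 1 difference from mt-Nd3, T3C, and Gm29216 has 6 differences from mt-Co1, T1056A, C1057T, A1059G, A1060G, C1062A and A1066T, with positions counted from 1 at the first base of the mitochondrial gene. The differing bases are in capitals (mt-Nd3, chrM:9459-9488; Gm28438, chr1:24613090-24613119; mt-Co1, chrM:6381-6410; Gm29216, chr1:24616168-24616197).
mt-Nd3: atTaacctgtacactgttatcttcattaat
Gm28438: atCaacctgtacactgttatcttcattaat
mt-Co1: ggTCtAAcCggaAttgttttatccaactca
Gm29216: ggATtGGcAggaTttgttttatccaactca

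The part of the counts that RSEM gave to the copy differed between genes and, for some, between libraries. For mt-Co3 the copy took at least 97.6% of the counts of the pair in every library. For mt-Co2 the copy took 92.0% to 100% of them. For mt-Nd3 the copy took 93.5% to 100% in 13 libraries and 0% in Input of mutant animal 69. For mt-Atp6 it took 100% in the 4 mutant IP libraries, and 100%, 0.161% and 2.25% in the wild-type IP libraries of animals 17, 121 and 140. For mt-Nd4l the share ran through the whole range, between 0% and 100%. The copy of mt-Nd4 took at most 22.7%, in IP of mutant animal 12, and the copy of mt-Co1 at most 1.86%, in Input of wild-type animal 17. In all, 22.5% to 27.96% of the counts on members and copies stood on the copies in IP and 31.2% to 42.7% in Input. Where reads were identical the tables cannot say which gene they came from. Values of mt-Co2, mt-Co3, mt-Atp6, mt-Nd3 and mt-Nd4l are therefore given below with the counts of their copies added, and those of the other 10 genes as deposited. Counts of genes passing a test are given both ways.

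**Figure D1:**
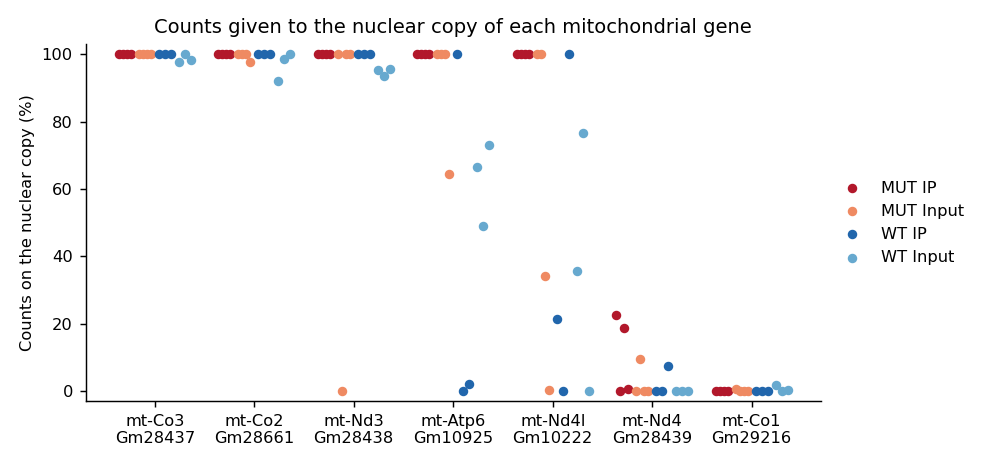
Share of the counts of each mitochondrial gene and its nuclear copy that stood on the copy, in percent, with 1 point per library. The copies of mt-Co3 and mt-Co2 held over 90% in every library, while the shares for mt-Atp6 and mt-Nd4l ran between under 1% and 100%.

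Mitochondrial genes took a far smaller part of the IP libraries than of Input. The 37 genes held 0.0610% ± 0.0167 of the counts without spike-ins in mutant IP against 0.664% ± 0.107 in mutant Input (SD, n = 4 animals). They held 0.0577% ± 0.00813 in wild-type IP against 0.738% ± 0.132 in wild-type Input (SD, n = 3 animals). Animal by animal, the share in Input was 12.6, 12.52, 9.79 and 9.86 times that in IP in mutants 12, 69, 93 and 94, and 12.7, 13.7 and 11.9 times that in IP in wild types 17, 121 and 140. IP and Input did not overlap in either genotype, while the mutant and wild-type ranges of this share overlapped in each fraction. With the 7 copies added the shares were 0.0818% ± 0.0213 in mutant IP, 1.05% ± 0.112 in mutant Input, 0.0764% ± 0.00954 in wild-type IP and 1.12% ± 0.139 in wild-type Input. The Input share was then 13.3 times the IP share on average in mutants and 14.7 times in wild type. As shares of TPM the ratios were smaller, with Input at 5.96 times IP in mutants and 7.15 times in wild type, or 6.95 and 8.82 times with copies. With copies, the TPM shares of Input did not overlap between genotypes, at 0.721% to 0.919% in mutants against 0.960% to 1.43% in wild type. Of single features tested, 15.2% had all mutants below all wild types in Input TPM and 1.29% had all mutants above.

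**Figure D2:**
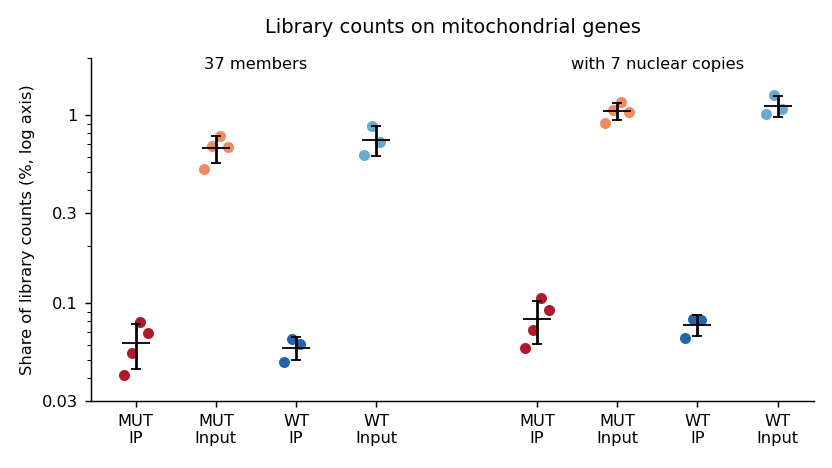
Share of library counts, without spike-ins, on the 37 mitochondrial genes (left) and on these with their 7 nuclear copies (right), in percent on a log axis. Points are libraries, and bars the mean ± SD of 4 mutant or 3 wild-type animals. All IP libraries sit between 0.0413% and 0.106%, and all Input libraries between 0.519% and 1.28%.

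The mRNAs differed widely in level. Per length, in TPM (transcripts scaled to the sum of the library), mt-Co3 and mt-Co1, which encode subunits 3 and 1 of cytochrome c oxidase, were highest. In Input, mt-Co3 had 2853 ± 65.8 TPM in mutants against 3523 ± 288 TPM in wild type, and mt-Co1 had 2055 ± 377 TPM in mutants against 2519 ± 400 TPM in wild type. Next came mt-Co2, also a subunit of cytochrome c oxidase, with 640.2 ± 66.5 TPM in mutant Input against 963 ± 326 TPM in wild-type Input. The ATP synthase mRNAs followed, mt-Atp6 with 609.8 ± 113 TPM against 878 ± 249 TPM and mt-Atp8 with 484 ± 43.3 TPM against 695 ± 271 TPM, mutant Input against wild-type Input in both. The fragments of mt-Atp8, 204 bases long, could start at only 48.7 to 57.8 effective positions, so its TPM depends strongly on that estimated length. Its Input counts were 931 to 1218 in mutants and 798 to 1484 in wild type. The lowest was mt-Nd2, a core subunit of complex I, at 94.3 ± 28.9 TPM in mutant Input against 124 ± 58.9 TPM in wild-type Input. The other complex I mRNAs and mt-Cytb, which encodes cytochrome b of complex III, lay between 146 and 266 TPM in mutant Input and between 184 and 498 TPM in wild-type Input. The replicates of mt-Co3, mt-Co1 and mt-Co2 did not overlap in either genotype. Below mt-Co2, neighbours in the mutant order overlapped over their replicates, apart from mt-Atp8 and mt-Nd3 in mutants.

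**Figure D3:**
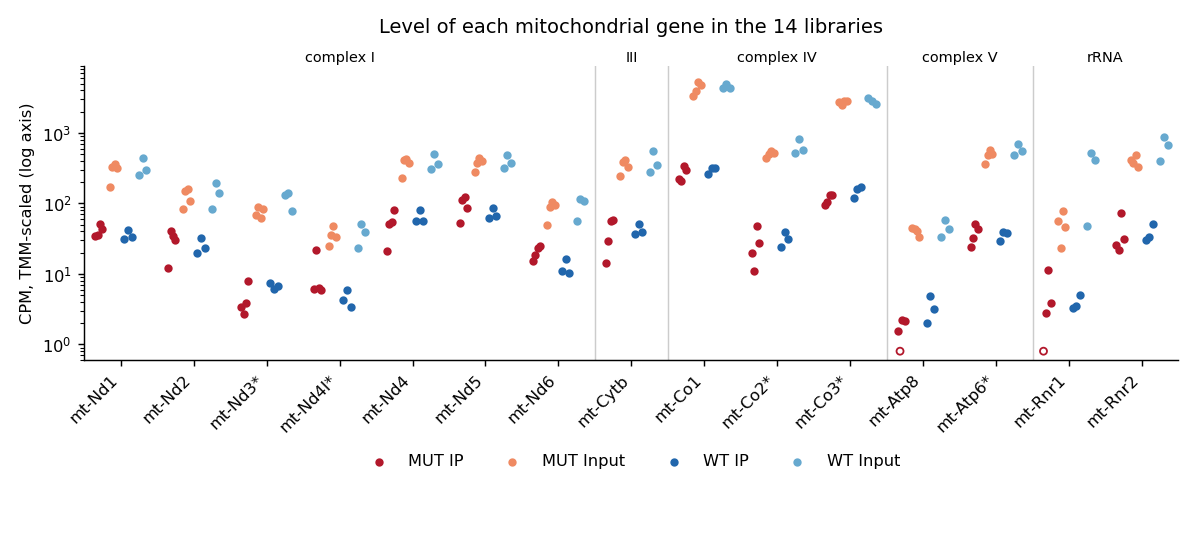
CPM, scaled by trimmed mean of M values (TMM) over all libraries, of the 15 mitochondrial genes with counts, on a log axis. Points are libraries of mutant (MUT) and wild-type (WT) animals, open points are libraries at 0 drawn at the foot of the axis, and an asterisk marks genes with the counts of their copies added. IP points lie below the Input points of the same genotype for all 15 genes.

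All 3 complex IV mRNAs were lower in IP in both genotypes. Mt-Co1 had 225, 211, 335 and 295 CPM in IP of mutants 12, 69, 93 and 94, against 3355, 3973, 5264 and 4803 CPM in their Input. In wild types 17, 121 and 140 it had 262, 315 and 317 CPM in IP against 4321, 4933 and 4359 CPM in Input. The fractions did not come near each other, and the log2 difference was -4.04 (SE 0.11, adjusted p 0.00027) in mutants and -3.62 (SE 0.09, adjusted p 0.00634) in wild type. Mt-Co3 had 95.9, 104, 132 and 132 CPM in mutant IP against 2761, 2449, 2813 and 2847 CPM in mutant Input, a log2 difference of -4.57 (SE 0.14, adjusted p 0.000405). It had 119, 161 and 172 CPM in wild-type IP against 3176, 2794 and 2584 CPM in wild-type Input, a log2 difference of -3.94 (SE 0.21, adjusted p 0.00632). Mt-Co2 stood at -4.45 (SE 0.41, adjusted p 0.00475) in mutants and -4.03 (SE 0.09, adjusted p 0.00632) in wild type. Its 4 mutant IP libraries spread from 11.1 to 47.4 CPM, against 444.5 to 555 CPM in mutant Input. These fits scale the libraries of 1 genotype together. Ratios of the CPM values, which are scaled over all 14 libraries, were lower than the fitted ones by a median of 0.31 on the log2 scale in wild type and the same to 0.002 in mutants.

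Of the ATP synthase mRNAs, mt-Atp6 was lower in IP in both genotypes and mt-Atp8 passed the test in wild type only, a difference between genotypes that the interaction did not call. With copies, mt-Atp6 had 24.3, 32.6, 51.2 and 43.2 CPM in mutant IP against 367, 487, 578 and 495 CPM in mutant Input, and 28.8, 39.6 and 38.6 CPM in wild-type IP against 482, 705 and 558 CPM in wild-type Input. The log2 difference was -3.71 in both genotypes, with SE 0.17 and adjusted p 0.000776 in mutants and SE 0.09 and adjusted p 0.00632 in wild type. Mt-Atp8 had 42, 0, 70 and 64 counts in mutant IP against 1177, 1218, 931 and 984 counts in mutant Input, and 57, 117 and 73 counts in wild-type IP against 798, 1484 and 1113 counts in wild-type Input. The wild-type fit passed the threshold at a log2 difference of -3.48 (SE 0.20, adjusted p 0.00634). The mutant fit did not, at -5.27 with SE 1.57 and adjusted p 0.113, and its size depends on the library at 0.

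Complex I mRNAs were reduced less, apart from mt-Nd3. Mt-Nd5 had 51.9, 112, 122 and 85.4 CPM in mutant IP against 282, 371, 441 and 393 CPM in mutant Input, a log2 difference of -2.06 (SE 0.16, adjusted p 0.00172). In wild type it had 61.1, 87.1 and 65.8 CPM in IP against 319, 493 and 372 CPM in Input, a log2 difference of -2.15 (SE 0.08, adjusted p 0.00634). Mt-Nd6, the only one of the 13 mRNA genes on the minus strand, had 15.01, 18.8, 23.5 and 24.8 CPM in mutant IP against 49.8, 87.6, 106 and 95.1 CPM in mutant Input, a log2 difference of -2.02 (SE 0.21, adjusted p 0.00392). It had 11.1, 16.4 and 10.3 CPM in wild-type IP against 56.6, 117 and 107 CPM in wild-type Input, a log2 difference of -2.54 (SE 0.25, adjusted p 0.0096). Each IP value of these genes lay below each Input value of its genotype. The log2 differences of mt-Nd1, mt-Nd2 and mt-Nd4 were -2.82, -2.19 and -2.90 in mutants (adjusted p 0.00142, 0.00464 and 0.00243) and -2.87, -2.09 and -2.28 in wild type (adjusted p 0.00634, 0.00672 and 0.00634). Mt-Nd3 stood nearer to the complex IV mRNAs, at -4.19 (SE 0.40, adjusted p 0.00304) in mutants and -3.74 (SE 0.23, adjusted p 0.00632) in wild type. Its IP values were 2.69 to 7.89 CPM in mutants and 6.15 to 7.40 CPM in wild type, against 62.8 to 87.5 CPM in mutant Input and 77.6 to 138 CPM in wild-type Input.

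Mt-Nd4l, a short complex I mRNA, was the only complex I mRNA that did not pass the test in mutants. It had 6.02, 22.2, 6.37 and 5.87 CPM in mutant IP against 24.9, 36.2, 47.1 and 32.9 CPM in mutant Input, and the high IP value belonged to animal 69. The mutant difference of -2.05 did not pass the threshold (SE 0.52, adjusted p 0.0669), while that in wild type, -2.71, did (SE 0.30, adjusted p 0.0114). Mt-Cytb lay between the groups, at -3.30 (SE 0.36, adjusted p 0.0059) in mutants and -2.87 (SE 0.11, adjusted p 0.00634) in wild type.

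As deposited, 8 of the 10 members tested were called lower in mutant IP than in mutant Input, where 3.56% of all features tested were. In wild type 10 of 13 were, where 6.37% of all features tested were. With the copies added the counts were 12 of 15 in mutants and 15 of 15 in wild type, with backgrounds of 3.56% and 6.38%. No member was higher in IP in either genotype, where 6.35% of all features were in mutants (6.36% with copies) and 13% in wild type. The median log2 difference over the 15 genes was -3.58 in mutants and -3.48 in wild type, beside -0.63 and -0.60 over all features tested, and -0.76 and -0.61 over these with another scaling (RLE). Without wild-type animal 121 or 140 the remaining 2 pairs gave 0 calls by edgeR in wild type, as deposited or with copies, and without animal 17 they gave 10 as deposited and 15 with copies. DESeq2 called 15 of 15 with copies lower in each genotype, where it called 29.9% of all features lower and 13.9% higher in mutants, and 31.2% lower and 22.9% higher in wild type.

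**Figure D4:**
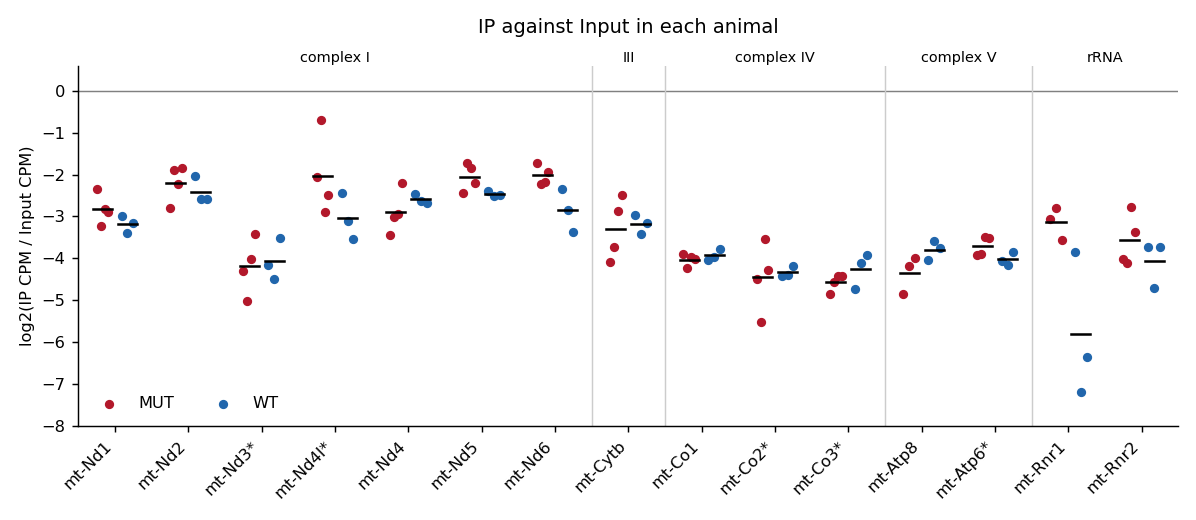
Log2 ratio of IP to Input CPM of each mitochondrial gene in each animal, mutants (MUT) left of wild types (WT). Points are animals, black lines the mean per genotype, and an asterisk marks genes with the counts of their copies added. Animals with 0 counts in IP (mutant 69 for mt-Atp8, mutant 12 for mt-Rnr1) have no point. All points lie below 0, and those of complexes IV and V lie mostly below those of complex I.

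One division among the mRNAs held in each animal. In all 7 animals every complex IV mRNA had a lower IP/Input ratio than each of mt-Nd1, mt-Nd2, mt-Nd4, mt-Nd5 and mt-Nd6, a grouping chosen after the values were seen and given without a test. It leaves out mt-Nd4l and mt-Nd3 of complex I. Mt-Nd4l lay above every complex IV mRNA in each animal, but mt-Nd3 did not. The log2 ratio of mt-Nd3 was below all 3 in wild type 121, at -4.49, and above all 3 in wild type 140, at -3.51. The mean log2 ratio of the 3 complex IV mRNAs minus that of these 5 was -1.86, -2.36, -1.58 and -2.03 in mutants 12, 69, 93 and 94, and -1.96, -1.37 and -1.09 in wild types 17, 121 and 140. Over the 13 mRNAs, the mean log2 ratios of mutants and wild types had a Pearson r of 0.913 and a Spearman rho of 0.852, with no sample in common. The 6 mRNAs with the highest TPM in Input, mt-Co1, mt-Co2, mt-Co3, mt-Atp6, mt-Atp8 and mt-Nd3, were also the 6 with the lowest IP/Input ratio. Mutant Input TPM set against the wild-type ratio gave a Spearman rho of -0.912 over the 13 mRNAs, given as a description. The mutant level and the wild-type ratio share no library, while all mRNAs of 1 genotype share theirs. The ratio still has Input as its denominator, and the same 6 mRNAs were highest in Input of both genotypes. A negative rho can arise from this alone, so it does not test a link between level and reduction in IP. The makeup of the mitochondrial mRNA pool, here with all 7 copies added, differed between fractions. Mt-Co3 made 15.9% ± 1.63 of all mitochondrial mRNA counts in mutant IP against 28.1% ± 3.98 in mutant Input, and 19.2% ± 1.90 in wild-type IP against 27.1% ± 4.00 in wild-type Input. Mt-Nd5 made 12.45% ± 3.21 in mutant IP against 3.77% ± 0.226 in mutant Input, and 9.09% ± 0.863 in wild-type IP against 3.71% ± 0.511 in wild-type Input.

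Most nuclear genes for the same complexes that passed the test were higher in IP. Of 85 nuclear respiratory chain genes, 83 were tested in each genotype, and 30 were higher and 1 lower in mutant IP than in mutant Input, with a median log2 difference of 0.83. In wild type 60 were higher and 1 lower, with a median of 1.07. Over all features 6.35% were called higher in mutants and 13% in wild type. Cox4i1, a nuclear subunit of cytochrome c oxidase, had 796 ± 34.9 CPM in mutant IP against 267 ± 36.3 CPM in mutant Input, and 929 ± 71.2 CPM in wild-type IP against 276 ± 49.8 CPM in wild-type Input. Its log2 differences were 1.58 (SE 0.12, adjusted p 0.00176) and 2.08 (SE 0.17, adjusted p 0.00704). Among 52 nuclear genes for the copying, processing and translation of mitochondrial RNA, 5 of the 51 tested in mutants and 20 of the 52 tested in wild type were higher in IP, with none lower. One of them, Slirp, which binds mitochondrial mRNAs, had a log2 difference of 0.69 (SE 0.11, adjusted p 0.0271) in wild type and 0.25 (SE 0.21, adjusted p 0.511) in mutants. Of the genes for mitochondrial ribosomal proteins, 78 were tested. The mutant IP had 15 of them higher and the wild-type IP 39, with none lower.

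Of 11 nuclear and cytosolic RNAs that ribosomes do not translate, 5 of the 7 tested in mutants and 5 of the 10 tested in wild type were lower in IP, with medians of -2.33 and -2.28, and none was higher. Rn7sk, the 7SK RNA that holds back a transcription elongation factor, had 435 ± 127 CPM in mutant IP against 22999 ± 5699 CPM in mutant Input, a log2 difference of -5.75 (SE 0.13, adjusted p 0.000227). It had 499.6 ± 76.1 CPM in wild-type IP against 20665 ± 2114 CPM in wild-type Input, a log2 difference of -5.06 (SE 0.15, adjusted p 0.00634). Of the Sertoli cell markers 4 of 19 tested were called lower and 1 higher in mutant IP, and 13 of 18 lower and 1 higher in wild-type IP, with medians of -4.32 and -2.42. A median weighs a marker near 0 in IP like any other. The 20 summed markers fell less, from a mean of 1662 CPM in mutant Input to 434 CPM in mutant IP. In wild type their mean was 1261 CPM in Input and 471 CPM in IP. Called lower were 1 of 9 Leydig, 1 of 11 macrophage and 1 of 10 vessel and blood markers tested in mutants. In wild type 8 of 11, 4 of 11 and 4 of 12 were, and none of these lists had a marker called higher. Over all features tested, 3.56% were called lower and 6.35% higher in mutants, and 6.37% lower and 13% higher in wild type. The mutant lists with 1 call are too short to compare with these shares. The part of the somatic cells in the lower IP values of the mitochondrial genes was not tested.

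The 2 mitochondrial rRNAs were also lower in IP. The libraries went through depletion of rRNA in the library kit and by read matching. Whether the matched sequences included these 2 is not given in the sources used here. Their values are therefore no measure of rRNA in the cells. Mt-Rnr2, the large-subunit rRNA, had 25.9, 21.7, 72.1 and 31.3 CPM in mutant IP against 418, 378, 492 and 326 CPM in mutant Input, a log2 difference of -3.57 (SE 0.31, adjusted p 0.00268). It had 30.03, 33.4 and 50.9 CPM in wild-type IP against 396, 873 and 678 CPM in wild-type Input, a log2 difference of -3.74 (SE 0.24, adjusted p 0.00641). Mt-Rnr1, the small-subunit rRNA, had 0, 82, 355 and 117 counts in mutant IP against 1451, 667, 1800 and 1323 counts in mutant Input. In wild-type IP it had 93, 85 and 117 counts against 1158, 13251 and 10778 counts in wild-type Input. Its wild-type difference of -5.55 was called (SE 0.85, adjusted p 0.0226) and its mutant difference of -4.09 was not (SE 1.73, adjusted p 0.245).

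Between genotypes, no mitochondrial gene was called in Input. Of 36572 features tested 0.00547% were called higher and 0.00273% lower in mutants, and of the 14 members tested as deposited, or 15 with copies, 0 were called. Adad2 itself was not called in Input, at a log2 difference of -1.76 (SE 0.37, adjusted p 0.347). It had 5.04 to 11.3 CPM in mutant Input against 25.0 to 30.1 CPM in wild-type Input, with no overlap. The test left even this difference uncalled, so the lack of a call does not show equal levels. At an unadjusted p under 0.05, 0 members were higher and 3 with copies were lower in mutants (mt-Rnr1, mt-Rnr2 and mt-Nd3), where 1.6% of all features were higher and 4.76% lower. All 15 had lower fitted values in mutants, with a median log2 difference of -0.13, beside -0.18 over all features tested. The sign turned for 9 of the mRNAs without mutant 12 or wild type 121, for mt-Co3 without wild type 17, and for mt-Co1 and mt-Co3 with RLE or DESeq2, so no direction is given for these 10. Mt-Co1 had 3355 to 5264 CPM in mutant Input against 4321 to 4933 CPM in wild-type Input, and mt-Nd1 had 173 to 358 CPM against 249 to 434 CPM. In CPM the groups overlapped for every member, while over all features tested 2.47% had all mutants above and 11.3% all mutants below wild type. In Input TPM with copies, all mutants lay below all wild types for 3 of the 15. Mt-Co3 had 2776 to 2927 TPM in mutants against 3209 to 3773 TPM in wild type, mt-Co2 544 to 689 TPM against 707 to 1331 TPM and mt-Nd3 212 to 322 TPM against 331 to 651 TPM. Over all features tested, 15.2% had all mutants below and 1.29% all mutants above in TPM.

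The widest gap was that of mt-Rnr1, and 2 animals carried it. It had 23.5 to 79.1 CPM in mutant Input, against 520.1 and 415 CPM in Input of wild types 121 and 140 and 47.6 CPM in that of wild type 17, which lay inside the mutant range. The log2 difference was -2.66 with SE 0.76 and adjusted p 0.364 in edgeR, and -2.18 without wild type 121 and -2.47 without wild type 140. DESeq2 called it at an adjusted p of 0.0461, where it called 2.16% of all features lower and 0.962% higher (0.968% with copies). Mt-Rnr2 showed the same animals apart, with 326 to 492 CPM in mutant Input against 396, 873 and 678 CPM in Input of wild types 17, 121 and 140, a log2 difference of -0.66 (SE 0.25, adjusted p 0.624). With copies, mt-Nd3 had 62.8 to 87.5 CPM in mutant Input against 132, 138 and 77.6 CPM in wild-type Input, a log2 difference of -0.61 (SE 0.22, adjusted p 0.583). No marker of another cell type was called between genotypes in Input. Of 18 round spermatid markers tested all were below 0, with a median log2 difference of -1.32. Above 0 were 17 of 19 Sertoli, 10 of 11 Leydig, 11 of 12 macrophage and 11 of 12 vessel and blood markers tested. Their medians were 0.32, 0.35, 0.50 and 0.61, while over all features 14539 lay above and 22033 below 0. Summed markers of macrophages were 183 to 240.2 CPM in mutants against 128 to 178 CPM in wild type. In these bulk samples fewer cells of a type and less RNA per cell cannot be told apart, and the part of cell makeup in the mitochondrial values was not tested.

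**Figure D5:**
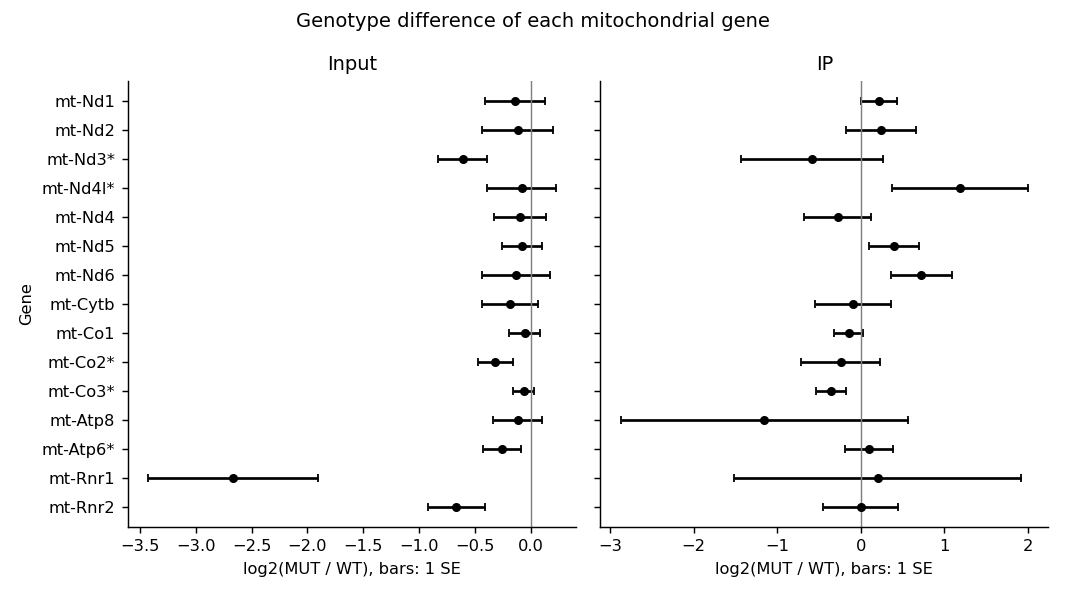
Fitted log2 difference between mutant and wild type for each mitochondrial gene in Input (left) and IP (right), with bars of 1 SE. An asterisk marks genes with the counts of their copies added. In Input mt-Rnr1 stands apart at -2.66, and in IP the bars of mt-Atp8, mt-Nd4l and mt-Rnr1 are the widest.

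No mitochondrial gene was called between genotypes in IP either. The test called 0 of 10 members as deposited and 0 of 15 with copies, where 0.00382% of all features were called higher and 0.00382% lower. No member had an unadjusted p under 0.05, where 1.35% of all features were higher and 10.3% lower, and DESeq2 called 0 members, where it called 1.63% of all features higher and 7.94% lower. Fitted differences lay on both sides, 8 above and 7 below 0 with copies, with a median of 0.002 beside -0.15 over all features tested and -0.05 over these with RLE. Mt-Nd6 stood at 0.73 (SE 0.36, adjusted p 0.603) with 15.01 to 24.8 CPM in mutant IP against 10.3 to 16.4 CPM in wild-type IP, which overlapped. Mt-Co3 stood at -0.36 (SE 0.18, adjusted p 0.602). In CPM no member had all mutants on 1 side of wild type, while 1.72% of all features tested had all mutants above and 15.1% all below. In IP TPM with copies, all mutants lay above wild type for mt-Nd6 and below it for mt-Co3 and mt-Atp8, while 2.51% of all features had all mutants above and 12.7% all below.

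The ratio of IP to Input within an animal, by which the study expressed ribosome association, differed between genotypes for no member in edgeR. Mitochondrial ribosomes carry no tag, so for these genes the ratio is no measure of ribosome association. It gives how much of their RNA remained in IP. The test of fraction by genotype with the animal as block called 0 of 10 members as deposited and 0 of 15 with copies, and 0% of all 16014 features tested. At an unadjusted p under 0.05 it had 1 member, mt-Nd6, higher in mutants, at a log2 difference of 0.84 (SE 0.29, adjusted p 0.556), where 0.475% of all features were higher and 6.74% lower. DESeq2 called 0 members, where it called 0.212% of all features higher and 5.9% lower. Taken as the study did, as the ratio of IP to Input TPM, mt-Nd6 had 0.385 to 0.651 in mutants against 0.145 to 0.375 in wild type, with means of 0.480 ± 0.120 (SD, n = 4) and 0.240 ± 0.120 (SD, n = 3). Mt-Nd5 had 0.401 to 0.546 in mutants against 0.258 to 0.372 in wild type. In both, all 4 mutants lay above all 3 wild types, as they did in 3.84% of the 15990 features above 0 in every Input, with 5.56% the other way. An exact two-sided permutation test gave p = 0.0286 for each, unadjusted, which is the smallest that the 35 splits of 4 against 3 animals allow, and of the other 9 genes tested as deposited none passed. The ratios overlapped for mt-Co1, at 0.0958 to 0.146 in mutants against 0.0934 to 0.118 in wild type, and for mt-Nd1, at 0.192 to 0.431 against 0.139 to 0.243. With CPM scaled over all libraries in place of TPM, the log2 ratios of mt-Nd5 overlapped, at -2.44 in mutant 12 and -2.38 in wild type 17. Those of mt-Nd6 did not, at -2.22 to -1.73 in mutants against -3.38 to -2.35 in wild type.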

How the data were processed

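RNA of testis lysate (Input) and of its anti-HA pull-down (IP) was sequenced from 7 animals after Ribo-Zero Gold depletion, with stranded TruSeq libraries. Per the study's methods, the authors trimmed reads, removed rRNA reads with Bowtie2 and quantified with RSEM 1.3.3 against Ensembl GRCm38 transcripts and transcripts they assembled from testis. The strand setting and the rRNA sequences used are not given in the sources used here. The deposited tables hold expected counts, TPM and FPKM per transcript, with length and effective length. The authors' FPKM values were not used. The authors' TPM values were used for levels per length and for the IP/Input ratio.

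Expected counts were summed per gene symbol (GENCODE M21, 133445 of 133849 Ensembl transcripts matched), giving 102531 features with the assembled transcripts, and were rounded. Spike-ins were left out. Tests used edgeR 4.0.16 (quasi-likelihood, robust, TMM, filterByExpr), with Benjamini-Hochberg adjustment over all features tested and a threshold of 0.05. The animal was a block in IP against Input and in the interaction, since both libraries came from 1 animal. The deviations of an animal's Input and IP correlated at 0.00717 to 0.105 in mutants and 0.0970 to 0.224 in wild types, over 9773 features. In mutant 93 this value, 0.00717, was below the highest with the IP of another animal, 0.0603. In the other animals it was above. SE is that of the log2 difference. Nuclear copies were pseudogenes sharing at least 90% of their 31-base words with a mitochondrial gene. Named genes were all members with counts, and comparison genes came from lists. Members and lists were chosen with earlier results of these data known. Alternatives were DESeq2 1.42.0, limma 3.58.1 on log2(TPM + 0.1) and log2(TPM + 1), RLE, other filters, no block, copies added and each animal left out. Sequences and coordinates are from GENCODE M21 on GRCm38. The scripts were tested on simulated data.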

Additional observations from a re-analysis of the deposited data

Results flagged for a closer look

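In 3 cases, as deposited, a single mutant library had counts where the other 3 of its group were at 0: mt-Co2 with 11.6 CPM in Input of animal 94, mt-Atp6 with 176 CPM in Input of animal 94 and mt-Nd3 with 87.5 CPM in Input of animal 69. All 3 genes have a nuclear copy on chromosome 1, and none of these values stood apart for that gene once the copy was added. With copies added, mt-Nd4l had 22.2 CPM in IP of mutant 69, against 5.87 to 6.37 CPM in the other 3 mutants. For normally spread values, chance alone marks about 1 in 20 groups this way. That rate does not hold for the 3 cases as deposited, where any value above 0 beside zeros is marked.

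The ratio of IP to Input TPM differed between genotypes in 2 genes, by an exact two-sided permutation test with unadjusted p = 0.0286 for each, the smallest the design allows. It was higher in mutants by 0.166 for mt-Nd5 and by 0.24 for mt-Nd6, and higher in 4 of 4 mutants than in any wild type, as for 3.84% of the features above 0 in every Input. In edgeR the same differences had adjusted p 0.741 for mt-Nd5 and 0.556 for mt-Nd6. With CPM in place of TPM the genotypes overlapped for mt-Nd5, at a log2 ratio of -2.44 in mutant 12 and -2.38 in wild type 17, but not for mt-Nd6.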

How the results depend on the processing

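The lower values in IP kept their direction for all members under every alternative run. Without 1 animal, the calls were 8 to 9 of the members as deposited and 12 to 13 with copies in mutants, and 0 to 10 as deposited and 0 to 15 with copies in wild type, with 0 without animal 121 or 140. Fewer animals were fitted there. Without the replicate block, the calls were 9 (14 with copies) in mutants, 11 (15 with copies) in wild type and 0 for the interaction.

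Between genotypes in Input, DESeq2 called 1 member (mt-Rnr1) as deposited and 1 with copies, and leaving out 1 animal gave 0 to 1 (mt-Co3 as deposited, without wild type 121). As deposited, mt-Co3 had 4.25 to 5.07 counts in mutant Input against 1828 and 1221 in Input of wild types 17 and 140. Its nuclear copy held at least 97.6% of the counts of the pair in every library. With copies added, leaving out 1 animal gave 0 calls. Log2 differences in Input changed sign for mt-Co1 with RLE (0.00676), DESeq2 (0.00676) and a minimum of 10 counts (0.0103), and for mt-Co3 with copies (0.00573, 0.00572 and 0.0078). Leaving out 1 animal, they ran from -0.14 to 0.0488 for mt-Co1, -0.14 to 0.0429 for mt-Co3, -0.29 to 0.11 for mt-Nd1, -0.37 to 0.19 for mt-Nd2, -0.22 to 0.11 for mt-Nd4, -0.32 to 0.18 for mt-Nd4l, -0.19 to 0.11 for mt-Nd5, -0.38 to 0.0499 for mt-Nd6, -0.28 to 0.11 for mt-Atp8 and -0.36 to 0.11 for mt-Cytb. In IP, mt-Cytb changed sign with RLE (0.0156), DESeq2 (0.0158) and a minimum of 10 counts (0.0172), mt-Rnr1 with limma (-1.25 with pseudocount 0.1 and -0.48 with 1) and mt-Rnr2 with limma (-0.13 with either). Leaving out 1 animal, IP differences ran from -0.31 to 0.19 for mt-Cytb, -0.81 to 0.62 for mt-Rnr1, -0.51 to 0.26 for mt-Rnr2, -0.68 to 0.0152 for mt-Co2 and -0.0708 to 0.26 for mt-Atp6, the last pair with copies. In the interaction, limma gave 0.13 with either pseudocount for mt-Co1 and 0.12 with either for mt-Cytb, and the fit without the replicate block gave 0.0963 for mt-Cytb, 0.0675 for mt-Co2 and 0.0094 for mt-Nd3. Leaving out 1 animal, it ran from -0.45 to 0.15 for mt-Cytb, -0.0262 to 0.42 for mt-Nd2, -0.57 to 0.21 for mt-Co2 and -0.46 to 0.12 for mt-Nd3. The permutation of TPM ratios passed 2 members, unadjusted. The cause of these changes was not tested.

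The share on mitochondrial genes was 0.793% in mutant Input, 0.0677% in wild-type IP and 0.896% in wild-type Input over gene symbols only, 0.407%, 0.0817% and 0.592% in TPM, and 1.05%, 0.0764% and 1.12% with copies, with 0.0818% in mutant IP. In TPM the mutant IP share was 0.0690%. Counts of mt-Atp8 and mt-Rnr1 were at 0 in 1 mutant IP library each, and their genotype differences in IP have an SE of 1.72 each, so even large ones were not detectable. That of mt-Nd4l has an SE of 0.82 with copies, with 643 counts in mutant 69 against 162 to 198 in the other mutants.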
